A study of Mus musculus with 15 samples.

Results

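Muscle from 5 old mice kept on caloric restriction (CR) was compared with muscle from all 10 mice on the control diet, 5 young and 5 old, to find transcripts in which restricted muscle stood apart from both control-diet groups in the same direction. All 15 arrays of the series entered the comparison, and all 22626 probe sets of the array other than the 64 manufacturer controls were tested, where a probe set is the group of short probes that reads 1 transcript. The mice were male C57BL/6NHsd housed singly for life. The young and old groups, aged 5 and 25 months, received 84 kcal a week, about 15% under what such mice eat freely, and the old CR group, aged 25 months, took in 26% fewer calories from a lifelong diet fortified in protein, vitamins and minerals. No young mice on the restricted diet were studied, so a difference of the old CR group from both others is tied to diet at old age only. Each array carried poly(A) RNA from the gastrocnemius, a fast calf muscle, of a different animal.

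Caloric restriction lowers circulating glucose, insulin and insulin-like growth factor 1 and moves muscle toward the oxidation of fat in mitochondria. Much work on aging asks whether it returns old tissue to a young pattern. The transcripts sought here lay beyond the level of the young as well as that of the old. In most of those found, the young mean lay between the old and CR means. Part of their distance from old was thus a return toward young.

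The tissue label was borne out by the markers of fast muscle fibers, whose 4 brightest members Tnni2, Atp2a1, Ckm and Mylpf had mean intensities between 27800 and 41500 in each group. Intensity is the brightness of a probe set after each array was scaled to a trimmed mean of 500.0, and array medians lay between 200.6 and 243.5. Young replicate 3 stood apart from its group. On the first principal component of the 11313 brighter probe sets, which carried 28.0% of the variance, it scored 26.3 while the other young arrays scored -17.8 to -10.3, the old arrays 18.9 to 30.3 and the CR arrays -21.4 to -15.2. Its log2 difference between the 3′ and 5′ control probe sets of Gapdh and Actb, a measure of how far the cDNA copies reached, was 0.06, against -0.28 to -0.18 in the other young arrays and 0.05 to 0.27 in the old arrays. The CR arrays averaged -0.30 ± 0.08 (SD, n = 5) and the control-diet arrays -0.03 ± 0.20 (SD, n = 10), a difference of -0.27 (two-sided exact permutation test, p = 0.0143, adjusted over 9 such tests 0.0258). Against the young group alone the difference was -0.11 (exact permutation test, p = 0.127, adjusted 0.143), and against the old group -0.42 (exact permutation test, p = 0.00794, the smallest that 5 against 5 arrays can give, adjusted 0.0238). The pooled difference thus lay mostly against the old group, and a fit with this measure as a covariate is given beside the counts below. The second component, with 11.6% of the variance, placed the CR arrays at -24.0 to -5.2, the young at 6.7 to 25.3 and the old at -12.2 to 7.2.

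**Figure D1:**
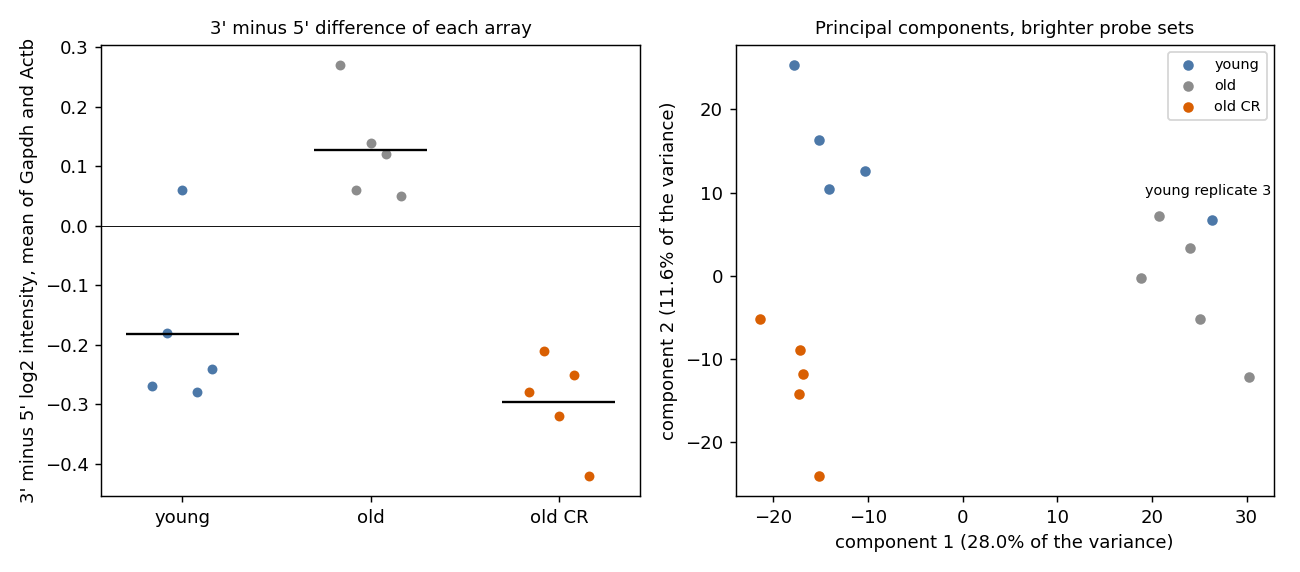
Left, the log2 3′ minus 5′ difference of each array (mean of Gapdh and Actb) by group, with the group mean as a line; right, the arrays on the first and second principal components of the brighter probe sets. The CR arrays lie at -0.42 to -0.21 on the left, and young replicate 3 lies among the old arrays on the right.

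Restricted muscle differed from the pooled control diet in 370 of the 22626 probe sets (1.64%; limma, Benjamini-Hochberg adjusted p under 0.05), of which 187 were higher (0.826%) and 183 lower (0.809%). A probe set was called diet-specific where, in addition, the CR group differed from the old and from the young group in the same direction, each with an unadjusted p under 0.05, and 334 probe sets (1.48%) of 300 named genes met this rule, 157 higher (0.694%) and 177 lower (0.782%). The other 36 of the 370, 30 higher and 6 lower, missed the added rule against the young or the old group. In the same fit the CR group differed from the old group in 1102 probe sets (4.87%) and from the young group in 20 (0.0884%), and the old from the young group in 60 (0.265%). These comparisons share arrays, so their counts are not independent of each other. A stricter rule, adjusted p under 0.05 against each group, left 14 probe sets (0.0619%), 9 higher and 5 lower. Counted with no model, all 5 CR values lay outside the range of the 10 control-diet values in 282 probe sets (1.25%), 137 above and 145 below, and 175 of the diet-specific probe sets were among them. In the bulk tissue, fewer cells of a type and less RNA per cell cannot be told apart.

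Where the old and young groups lay relative to each other was read as a description only. In 237 of the 334 diet-specific probe sets the old-minus-young difference had the sign opposite to the diet difference, so that restricted muscle lay beyond the young level on the side away from the old, and in 97 it had the same sign. Between old and young 107 of the 334 had an unadjusted p under 0.05, which 15.5% of all probe sets had, and 1 was called. The diet difference of the 157 higher probe sets had a median of 0.84 (log2) and that of the 177 lower ones a median of -0.69. Without young replicate 3, 258 probe sets were diet-specific, and of the 33 probe sets named below by size of change or by the stricter rule 29 stayed called, all but those of Uchl1, Phka1, Ptprb and Smc6. With the 3′ minus 5′ difference of each array as a covariate none was called, all 334 kept the sign of their difference, the median ratio of the difference to that without the covariate was 0.84, the median ratio of the standard errors was 1.68, and 217 had an unadjusted p under 0.05, against 1726 of all probe sets.

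**Figure D2:**
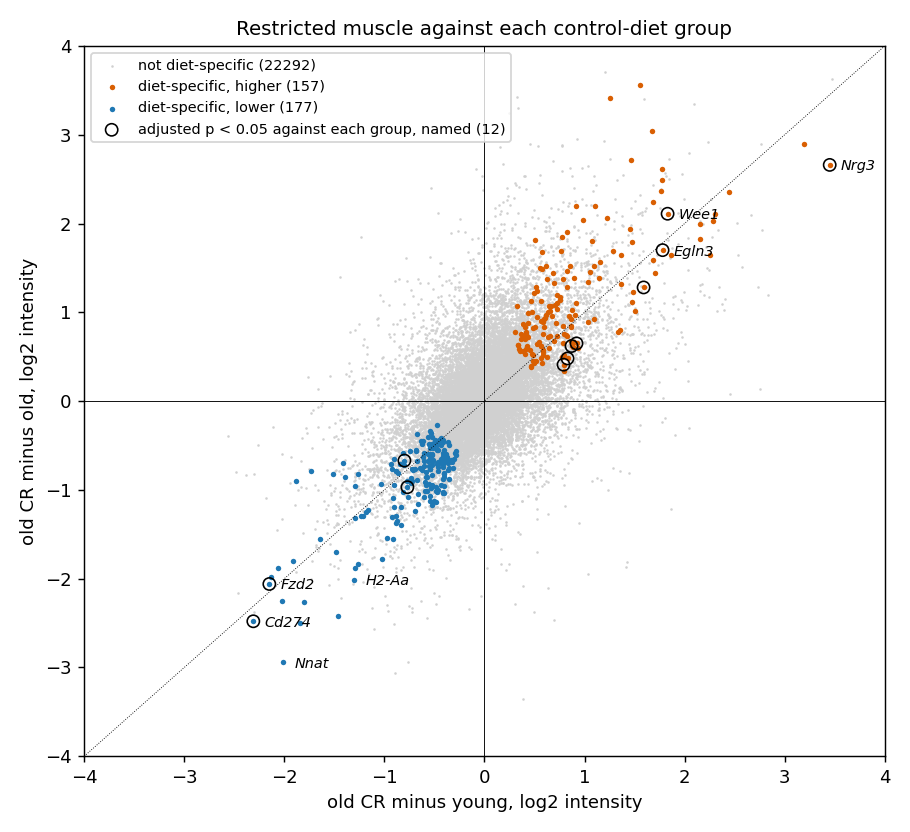
Difference of old CR from young (x axis) and from old (y axis) in log2 intensity, 1 point a probe set, with the 334 diet-specific probe sets in color and the 12 named ones that passed the stricter rule ringed. Diet-specific probe sets lie in the quadrants where both differences have the same sign.

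By the smaller of the differences from young and from old, the largest rise and the largest fall among the brighter transcripts belonged to Egln3 and Nnat, and the 250 bases before their annotated starts are shown together with those of Hadha, a fat oxidation gene that rose while its neighbor on the opposite strand did not pass the test. The sequences are from RefSeq (GRCm38.p6), 5′ to 3′ on the strand of the gene. Capitals mark ACGTG or GCGTG on either strand, the core recognized by hypoxia-inducible factors, of which Egln3 is a textbook target, and 38.6% of all 32851 promoters of this length, or 50.6% of the 12566 that belong to genes on the array, hold at least 1.
Egln3, chr12:54203875-54204124, minus strand: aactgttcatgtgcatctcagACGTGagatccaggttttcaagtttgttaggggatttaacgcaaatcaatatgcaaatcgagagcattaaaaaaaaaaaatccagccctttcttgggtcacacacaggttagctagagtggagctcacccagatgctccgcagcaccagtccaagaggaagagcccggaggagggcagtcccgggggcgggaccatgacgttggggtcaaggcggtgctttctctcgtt
Nnat, chr2:157559828-157560077, plus strand: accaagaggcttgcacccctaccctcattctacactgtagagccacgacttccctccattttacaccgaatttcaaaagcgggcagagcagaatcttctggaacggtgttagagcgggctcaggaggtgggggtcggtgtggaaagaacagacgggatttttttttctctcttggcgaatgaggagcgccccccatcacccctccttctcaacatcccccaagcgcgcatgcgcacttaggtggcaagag
Hadha, chr5:30154981-30155230, minus strand: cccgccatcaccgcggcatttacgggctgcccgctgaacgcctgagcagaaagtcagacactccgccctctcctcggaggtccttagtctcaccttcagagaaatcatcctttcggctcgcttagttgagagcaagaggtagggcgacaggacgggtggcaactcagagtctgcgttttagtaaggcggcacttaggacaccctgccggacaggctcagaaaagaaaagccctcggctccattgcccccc
The Egln3 window held 1 match and the other windows none. Of the 300 diet-specific genes, promoters were found for 112 of the 137 higher and 131 of the 163 lower ones, and 57.2% and 56% of these promoters held the core. A match is a run of letters and not a measured site.

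Egln3 encodes a prolyl hydroxylase that marks hypoxia-inducible factor for destruction when oxygen is plentiful. Its first probe set read 3880, 4000, 2390, 1370 and 2530 in the 5 CR arrays and 549 at the lowest, 790 at the median and 1030 at the highest in the 10 control-diet arrays. The second probe set read 4240, 4100, 2760, 2010 and 2350 against 839, 1070 and 1520. Every CR array lay above every control-diet array in both. Young and old means were near each other in the first (786 and 823) and further apart in the second (988 and 1230). The log2 differences from the control diet were 1.74 ± 0.23 (SE) and 1.44 ± 0.18, each with an adjusted p of 0.00701 (limma), and the first probe set was 3.43-fold above young and 3.24-fold above old. Both passed the stricter rule and were called in each of the 15 fits that left out 1 array. The sister genes did not pass the test. Egln2 differed by 0.35 ± 0.13 (adjusted p = 0.187), and the Egln1 probe sets differed by -0.27 ± 0.12 (0.255) and 0.11 ± 0.21 (0.83).

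Nnat encodes neuronatin, a small membrane protein from an imprinted gene, read only from the paternal copy. It read 87.7, 47.9, 130, 142 and 237 in the CR arrays against 338, 651 and 1700 as lowest, median and highest of the control-diet arrays. No CR array reached the control-diet range, and the mean was 4.03-fold lower than in young and 7.66-fold lower than in old muscle, a log2 difference from the control diet of -2.47 ± 0.36 (adjusted p = 0.0132). The call held in all 15 fits with 1 array left out. Nnat is also made by fat cells, and the summed intensity of the 19 adipocyte markers measured, Nnat among them, was 51400 to 61600 in CR, 49900 to 61900 in young and 52600 to 72100 in old arrays, with 12 of the 19 means lower than in the control diet and none other than Nnat called. The part of fat cells in the fall of Nnat was not tested beyond these values.

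Of the 25 imprinted genes measured, Nnat was the 1 diet-specific member, and 21 of the 25 had a mean below that of the control diet (list median -0.25, against -0.00 for all 12393 genes, each gene by its brightest probe set). The counts of list members below read against 1.75% of all genes called (0.686% higher, 1.07% lower) and 1.63% diet-specific (0.589% higher, 1.04% lower). Gnas, a stimulatory G protein subunit, had 5 CR values below all control-diet values but missed the threshold (-0.47 ± 0.12, adjusted p = 0.0615), and its 3 other probe sets went both ways. Mest (-0.63 ± 0.18, adjusted p = 0.0837) and Nckap1 (-0.40 ± 0.11, adjusted p = 0.074) did not pass either.

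Several genes of fatty acid oxidation rose in restricted muscle. Of 28 genes of fatty acid uptake and oxidation measured, 4 were diet-specific and higher and none lower, and the list median was 0.21. Decr1, the reductase needed for unsaturated fatty acids, read 5010, 3140, 4000, 3570 and 4170 in the CR arrays against 1870, 2360 and 2780 as lowest, median and highest of the control diet. The groups did not overlap, and young and old means were alike (2310 and 2200), so that the difference of 0.81 ± 0.13 (adjusted p = 0.0182) was much the same from either (0.78 and 0.85). Its second probe set read higher as well without passing (0.49, adjusted p = 0.0909).

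Hadha, the alpha subunit of the mitochondrial trifunctional protein, read 8800, 5700, 6320, 5660 and 6290 against 2860, 3660 and 5290. All CR values exceeded the control diet (0.81 ± 0.14, adjusted p = 0.0193). Hadhb encodes the beta subunit of the same enzyme and starts 272 bases away on the opposite strand, just beyond the window printed above for Hadha. It did not pass the test in either probe set (-0.01 ± 0.12, adjusted p = 0.971, and 0.42 ± 0.16, adjusted p = 0.192). Echs1, a further enzyme of fatty acid oxidation, read 5330, 3880, 3750, 2960 and 3630 against 1650, 1880 and 3040, with the lowest CR value inside the control-diet range (0.91 ± 0.15, adjusted p = 0.0182). Acads, which starts the oxidation of short chains, differed by 0.60 ± 0.13 (adjusted p = 0.041) and was called in 1 of the 15 fits with an array left out, whereas Decr1, Hadha and Echs1 were called in all 15.

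The other mitochondrial lists held few diet-specific members. In the respiratory chain, 38 of 42 genes had a higher mean in CR (median 0.14), and 1, the complex I subunit Ndufv1, was diet-specific by its brightest probe set (0.66 ± 0.15, adjusted p = 0.041, called in 2 of 15 fits with an array left out). The list median was 0.24 from old and 0.07 from young, and 27 of the 42 means lay above both groups. Atp5pb of the ATP synthase read 11200, 10700, 10000, 9870 and 10100 against at most 8810 in the control diet but missed the threshold in this probe set (0.31 ± 0.08, adjusted p = 0.0697), while its other probe set was diet-specific (0.48, adjusted p = 0.0333). So was a dimmer probe set of the complex III subunit Uqcrc2 (0.66, adjusted p = 0.0482). In the mitochondrial ribosome 1 of 34 genes was diet-specific by its brightest probe set, and Mrpl11 and Mrpl15 were in another (0.56 and 0.47, adjusted p = 0.0471 and 0.0403). The first was Mrpl12, at 2620, 1830, 1720, 1690 and 1920 against 719, 940 and 1510, with no overlap (0.96 ± 0.15, adjusted p = 0.0163). Mrps18c, a further mitochondrial ribosomal protein outside the list, read 1510, 901, 907, 1020 and 989 against 324, 576 and 739 (0.94 ± 0.20, adjusted p = 0.0398) and was called in 4 of 15 fits. No citric acid cycle gene passed by its brightest probe set, and Aco1, the cytosolic aconitase, was lower in another (-0.84, adjusted p = 0.0467). The nearest, Idh2, which makes NADPH in mitochondria, read 10500, 8270, 8250, 7930 and 9440 against 2430, 5000 and 6920, all above the control diet (0.98 ± 0.23, adjusted p = 0.0512).

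Acly, which makes cytosolic acetyl-CoA for lipid synthesis, was diet-specific and higher in 2 of its 5 probe sets. Another of the 5 lay the other way (-1.73) and was not diet-specific. The brightest read 3650, 2340, 1940, 2460 and 1680 against 450, 913 and 1920, so 1 CR array lay inside the control-diet range (1.31 ± 0.21, adjusted p = 0.0182, 1.85 from old and 0.77 from young). By its brightest probe set no other of the 22 lipid synthesis genes measured was diet-specific. The list median was -0.12, or 0.10 with the probe sets of each gene averaged. Tkt, the transketolase of the pentose phosphate pathway, was diet-specific in its dimmer probe set (0.90, adjusted p = 0.0289) and missed the threshold in its brightest (1.04, adjusted p = 0.054).

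**Figure D3:**
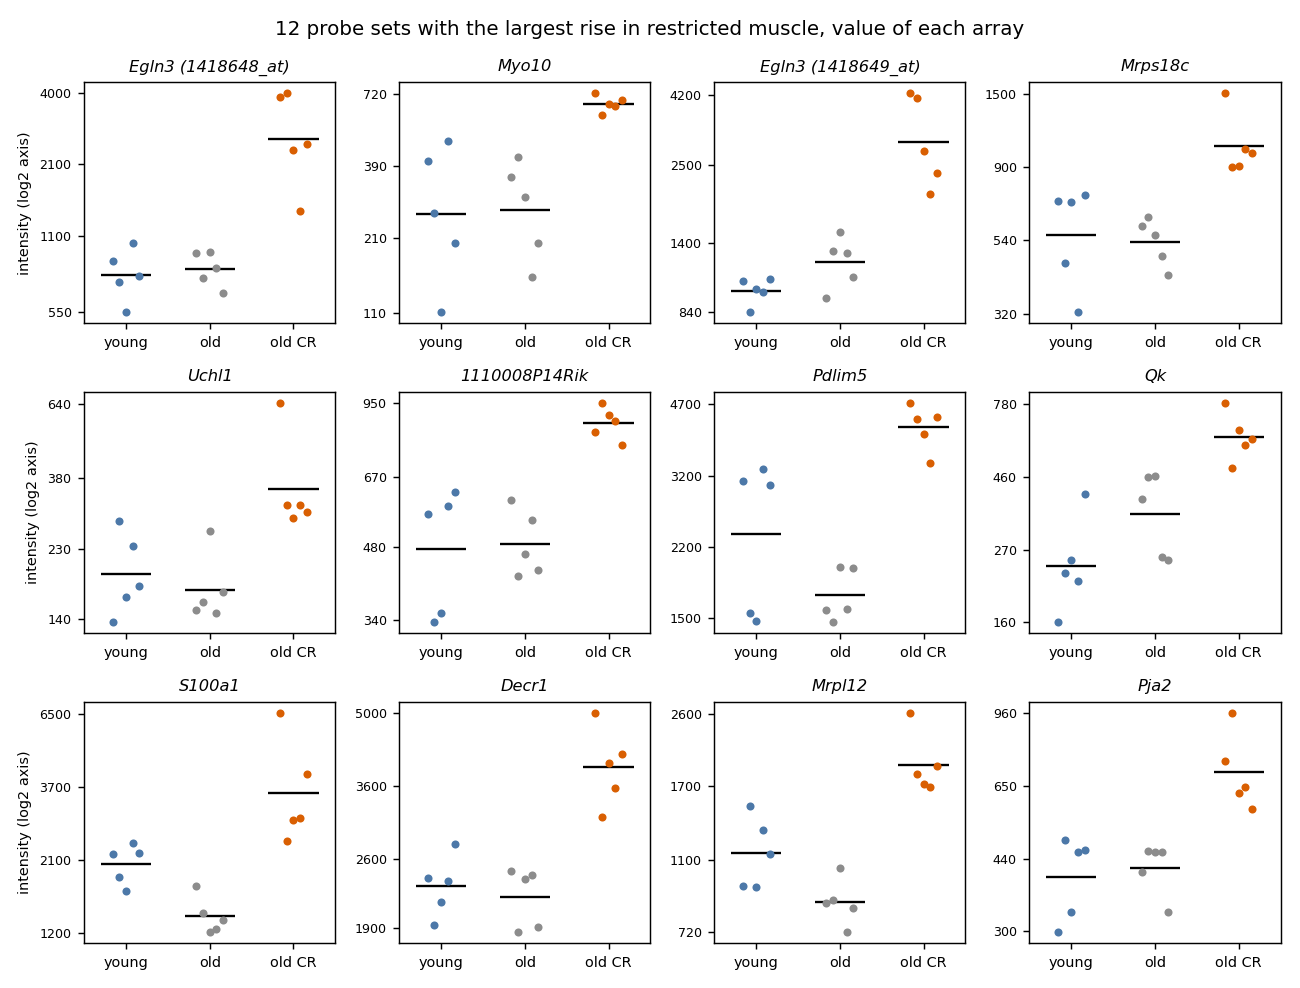
Intensity (log2 axis) on each array for the 12 brighter probe sets with the largest rise by the smaller of the differences from young and from old, with the mean of the log2 values as a line. The 12 were chosen among diet-specific probe sets in which all 5 CR arrays lie above all 10 control-diet arrays, so this separation follows from the choice.

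The other large rises were in genes of varied function. Myo10, an unconventional myosin of filopodia, read 724, 599, 663, 652 and 684 against 111, 279 and 483 (1.34 ± 0.31, adjusted p = 0.0471), with control-diet arrays spread widely, and was called in 2 of 15 fits with an array left out (adjusted p of up to 0.0981). Its other probe sets, the first of them brighter, differed by 0.20 and 0.14 (adjusted p = 0.406 and 0.813). Pdlim5, a PDZ-LIM protein of the Z-disc, read 4730, 4350, 4010, 3440 and 4400 against 1470, 1770 and 3330 (1.06 ± 0.20, adjusted p = 0.0245), although its 6 other probe sets ranged from -0.02 to 0.92, 1 of them called and none diet-specific. S100a1, a calcium-binding protein of striated muscle, was diet-specific in both probe sets (1.07 ± 0.20, adjusted p = 0.0233, and 1.56, adjusted p = 0.0362). The first read 6540, 2440, 2870, 2920 and 4070 against 1210, 1690 and 2400, with CR replicate 3 just above the control diet. Without CR replicate 7 its difference was 1.02 with an adjusted p of 0.0594.

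Qk, an RNA-binding regulator of splicing, read 785, 491, 645, 577 and 605 against 160, 255 and 464 (1.08 ± 0.22, adjusted p = 0.0311). Its other probe sets differed by 0.18, -0.24 and 0.03 (adjusted p = 0.6, 0.382 and 0.938), the last pair brighter than the named one. Hnrnpa2b1, another RNA-binding protein, passed the stricter rule at 4020, 3480, 3730, 3480 and 3320 against 1700, 2130 and 2680 (0.74 ± 0.12, adjusted p = 0.0182), while its 3 other probe sets read 0.20 to 0.45 higher without passing. Uchl1, a ubiquitin hydrolase, rested on a wide CR group (643 in CR replicate 2 and 285 to 313 in the others, against at most 280) and had an adjusted p of 0.0493, lost in 14 of the 15 fits with an array left out. The ubiquitin ligase Pja2 (0.77 ± 0.16, adjusted p = 0.0329) and the uncharacterized 1110008P14Rik (0.85 ± 0.16, adjusted p = 0.0254) completed the 12. The other probe sets of Pja2 differed by 0.32 and 0.57 without passing. Those of 1110008P14Rik, both brighter than the named one, differed by -0.02 and -0.06.

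Among the genes that passed the stricter rule, Ugp2, which makes the UDP-glucose from which glycogen is built, and Ppp1cb, a catalytic subunit of the phosphatase that switches glycogen synthase on, both rose. Ugp2 read 7660, 8060, 7120, 6950 and 7310 against 3840, 4930 and 6110 (0.60 ± 0.09, adjusted p = 0.0178), and a second of its 5 probe sets was also diet-specific (0.64, adjusted p = 0.0333). The brightest probe set of Ugp2 missed the threshold (0.22, adjusted p = 0.379, 0.12 from old and 0.31 from young). So did the remaining pair (0.55 and 0.33, adjusted p = 0.0837 and 0.283). Ppp1cb read 3020, 3220, 3240, 3640 and 3110 against 1640, 2130 and 2740 (0.66 ± 0.10, adjusted p = 0.0143). Neither overlapped with the control diet, although the 3 other probe sets of Ppp1cb differed by 0.07 to 0.38 without passing. Phka1, the muscle alpha subunit of the kinase that switches glycogen breakdown on, fell, at 1920, 2560, 3810, 4670 and 4270 against 4750, 5820 and 7100 (-0.84 ± 0.18, adjusted p = 0.0398). The CR arrays were scattered, and this call was kept in 1 of 15 fits with an array left out (adjusted p of up to 0.0838). The brightest probe set of Phka1 missed the threshold (-0.39, adjusted p = 0.227, -0.17 from old and -0.60 from young). So did its dimmest (-0.65, adjusted p = 0.0962, -0.42 from old and -0.88 from young). Birc6, an inhibitor of apoptosis, rose by 0.78 ± 0.14 (adjusted p = 0.0225), with an adjusted p of 0.0522 without CR replicate 6. Alg2, a mannosyltransferase of N-glycosylation, fell, at 548, 759, 716, 731 and 820 against 1020, 1180 and 1330 (-0.74 ± 0.11, adjusted p = 0.0111).

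Another 4 genes that passed the stricter rule were dim, below the median probe set. Cd274, the immune checkpoint ligand PD-L1, had the smallest p of all in the comparison, with 17.9, 17.5, 25.9, 19.9 and 12.2 against 56.8, 101 and 152 (-2.39 ± 0.23, adjusted p = 0.000929). Fzd2, a Wnt receptor, read 38.6, 46.4, 26.4, 76 and 131 against 192, 222 and 376 (-2.11 ± 0.30, adjusted p = 0.0111), but its other probe sets, 1 of them brighter, differed by -0.18 and -0.41 (adjusted p = 0.381 and 0.571). Nrg3, an ErbB4 ligand, read 31.2, 47.4, 51.5, 65.3 and 46.6 against 2.77, 4.95 and 21.3 (3.05 ± 0.37, adjusted p = 0.00701). Wee1, a kinase that restrains entry into mitosis, read 31.2, 51.9, 40.1, 60.5 and 14.9 against 6.87, 8.9 and 13.1 (1.97 ± 0.26, adjusted p = 0.00701). The second probe sets of Nrg3 and Wee1 differed by 0.33 and 0.37 (adjusted p = 0.705 and 0.618). All 4 were called in each of the 15 fits with an array left out, yet no detection call was used here, and at such intensities a probe set may read background.

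Of the genes named by size of change or by the stricter rule, 25 have several probe sets, and 3 of these had a second that was diet-specific. These were Egln3, S100a1 and Ugp2. Of the 47 other probe sets, 41 had the sign of the named one, 3 were called and 2 were diet-specific.

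The proteasome, which degrades ubiquitin-tagged proteins, had 4 diet-specific members of 36, all higher, with a list median of 0.07. In the list 22 means were higher and 14 lower. Its largest difference was a fall that did not pass, in Psmb8 (-1.09, adjusted p = 0.161). Psmc1 and Psmc5 are ATPases of the proteasome base. Psmc1 read 1460, 1440, 1680, 1450 and 1340 against 681, 830 and 1230 (0.73 ± 0.13, adjusted p = 0.0226), and Psmc5 read 2630, 2640, 2130, 3120 and 2200 against 1110, 1540 and 2030 (0.76 ± 0.15, adjusted p = 0.0282). Psmb3 of the core ring (0.47 ± 0.09, adjusted p = 0.0311) and Psmd2 of the base (0.42 ± 0.10, adjusted p = 0.047) were smaller but did not overlap with the control diet either. Leaving out 1 array kept the calls in 14, 11, 9 and 1 of 15 fits for Psmc1, Psmc5, Psmb3 and Psmd2, with an adjusted p of 0.0554 for Psmc1 without CR replicate 5. With arrays centered on their medians, 2 of the 36 stayed diet-specific by count.

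Among 40 heat shock proteins and chaperones 2 were diet-specific and higher, by their brightest probe sets, against a list median of 0.02 (-0.02 with arrays centered on their medians). Canx, the calnexin that folds glycoproteins in the endoplasmic reticulum, was higher in 2 of 3 probe sets and read 1950, 1810, 1470, 1390 and 1100 against 634, 918 and 1030 in the brightest (0.78 ± 0.14, adjusted p = 0.023; 0.0557, 0.0549 and 0.0522 without CR replicates 2, 3 and 5). Hspa9, the mitochondrial Hsp70, read 5290, 4170, 4020, 3840 and 3840 against 1960, 2540 and 3740 (0.67 ± 0.15, adjusted p = 0.0399, called in 2 of 15 fits with an array left out). Hsp90b1, a chaperone of the endoplasmic reticulum, was diet-specific in another probe set than its brightest (1.12, adjusted p = 0.0225). Of 20 aminoacyl-tRNA synthetases, Cars was diet-specific, at 958, 749, 857, 869 and 883 against 333, 454 and 710 (0.84 ± 0.17, adjusted p = 0.0295). The brightest probe set of Sars was called (0.99 ± 0.19, adjusted p = 0.0273) but not diet-specific, with 1.55 from old and 0.43 from young, and its other probe set was diet-specific (1.38 from old and 0.62 from young, adjusted p = 0.0193). With the 3′ minus 5′ covariate Cars differed by 0.33 and Sars by 0.39.

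Among cytosolic ribosomal proteins 27 of 33 had a higher mean in CR (median 0.17), and 1, Rps20, was diet-specific by its brightest probe set (0.46 ± 0.10, adjusted p = 0.0409). Rps20, Rpl11 and Rpl13a had all CR values above the control diet, the latter pair with adjusted p = 0.0832 and 0.139, while the other probe sets of Rps20 ranged from -0.52 to 0.70. Rpl35 was diet-specific in a probe set other than its brightest (0.50, adjusted p = 0.0355). Ribosomal protein probe sets may also read processed pseudogenes. Of the 24 genes of atrophy and autophagy, Map1lc3a, an autophagosome coat protein, was higher (0.77 ± 0.16, adjusted p = 0.0398) and Atg5, which helps attach such proteins to membrane, was lower (-0.50 ± 0.12, adjusted p = 0.0467), with 297, 348, 327, 324 and 358 against 377, 450 and 627. Map1lc3a was called in 4 of 15 fits with an array left out, and Atg5 and Rps20 in 2 each.

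Most contractile genes had a higher mean in restricted muscle, and few passed the test. Of 15 myosin chains, 13 had a higher mean (median 0.50, or 0.52 from old and 0.19 from young), 9 had a mean above both groups and 1 was diet-specific. This was Myh1, the heavy chain of type 2X fibers, at 17400, 19300, 20400, 21600 and 19500 against 11700, 14000 and 16700 (0.50 ± 0.11, adjusted p = 0.0376), and a second of its 3 probe sets was diet-specific as well (0.59, adjusted p = 0.0403). The first was called in 4 of 15 fits with an array left out. Myh4, the 2B heavy chain, differed by 0.02 ± 0.11 (adjusted p = 0.95) and Myh2, the 2A chain, by 0.29 ± 0.12 (adjusted p = 0.226).

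The probe set that the platform annotation gives to the antisense transcript Myhas moved the other way. It read 1210, 1440, 1550, 1350 and 1790 in CR against 2230, 2670 and 3370, with no overlap (-0.87 ± 0.11, adjusted p = 0.00701), passed the stricter rule and was called in all 15 fits with an array left out. In RefSeq Myhas lies between Myh1 and Myh4 on the opposite strand, its start 530 bases from that of Myh4, and its span overlaps that of Myh1. The annotation gives the same source sequence to this probe set and to the Myh1 probe set that rose, so which strand each reads rests on the annotation alone.

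In the thin filament 12 of 14 genes had a higher mean (median 0.27, or 0.38 from old and 0.16 from young), and 9 had a mean above both groups. Tpm2, a tropomyosin, was diet-specific in a dimmer probe set (1.01, adjusted p = 0.0193) but not in its brightest (0.56, adjusted p = 0.0769). Tnnc1, the slow and cardiac troponin C, was diet-specific at 12700, 12800, 9940, 8290 and 11800 against 2160, 5190 and 8530 (1.25 ± 0.29, adjusted p = 0.0461, called in 1 of 15 fits with an array left out). Other slow-type genes did not pass. Tpm3 differed by 1.23 ± 0.33 (adjusted p = 0.0747), Tnni1 by 1.20 ± 0.35 (0.0892), Myh7 by 0.77 ± 0.30 (0.196) and Myl2 by 0.72 ± 0.24 (0.136). All 13 fast fiber markers also had a higher mean in CR than in the pooled control diet, 8 of them above both groups, with summed intensities of 289000 to 443000 against 344000 to 400000 in young and 275000 to 374000 in old arrays.

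**Figure D4:**
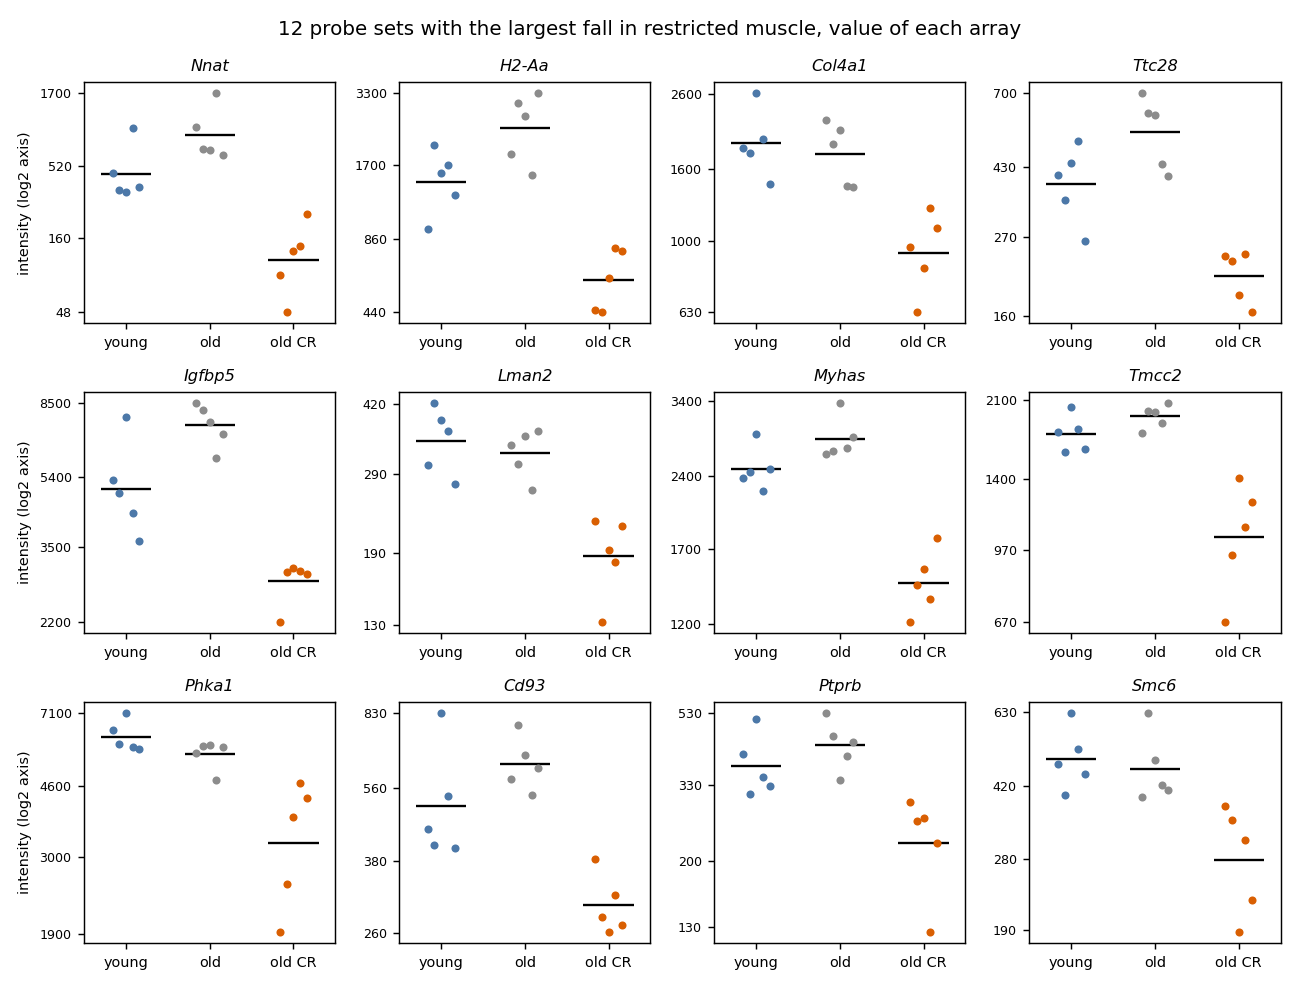
Intensity (log2 axis) on each array for the 12 brighter probe sets with the largest fall by the smaller of the differences from young and from old, with the mean of the log2 values as a line. The 12 were chosen among diet-specific probe sets in which all 5 CR arrays lie below all 10 control-diet arrays, so this separation follows from the choice.

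Of 29 genes of the insulin, IGF and mTOR list 3 were diet-specific, Igfbp5, Igfbp7 and Igf1, all lower, with a list median of -0.18. The other binding proteins measured, Igfbp3 (-0.29, adjusted p = 0.461), Igfbp4 (-0.06, adjusted p = 0.796) and Igfbp6 (0.06, adjusted p = 0.826), did not pass. Igfbp5, a binding protein that holds the growth factor in the matrix, read 2200, 2990, 3080, 3010 and 2970 against 3640, 6550 and 8520. It did not overlap with the control diet and was 1.78-fold below young and 2.63-fold below old (-1.11 ± 0.16, adjusted p = 0.0132). Its other probe set missed the threshold (-0.76, adjusted p = 0.123). Igfbp7, a binding protein also made by vessels, read 3390, 3130, 3380, 3510 and 3060 against 3780, 5340 and 8800 (-0.75 ± 0.17, adjusted p = 0.041). The other probe sets of Igfbp7 lay the other way, at 0.37 and 0.13, without passing. The ligand Igf1 read 340, 455, 280, 268 and 364 against 368, 751 and 1200 in the probe set that fell (-1.04 ± 0.24, adjusted p = 0.0467), with 1 CR array inside the control-diet range, and its other probe sets differed by 0.07 and -0.30 (adjusted p = 0.907 and 0.352). Igfbp5 was called in all 15 fits with an array left out, and Igfbp7 and Igf1 in 3 each (adjusted p of up to 0.0931 and 0.106).

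Of the 13 MHC genes measured 2 were diet-specific, both lower and both of class II presentation. H2-Aa, an MHC class II alpha chain, read 449, 439, 601, 795 and 774 against 941, 1800 and 3300, all below the control diet (-1.66 ± 0.23, adjusted p = 0.00976, 2.47-fold below young and 4.03-fold below old). Its second probe set missed the threshold (-0.76, adjusted p = 0.123), as did H2-Ab1, the class II beta chain that pairs with it, in its brightest probe set (-0.34, adjusted p = 0.727). Cd74, the invariant chain that escorts class II molecules, read 546, 720, 1150, 907 and 883 against 1040, 1650 and 3110, overlapping at 1 CR array (-1.11 ± 0.21, adjusted p = 0.0271). H2-Eb1 (-0.69 ± 0.20, adjusted p = 0.0883) and the peptide transporter Tap1 (-0.52 ± 0.14, adjusted p = 0.0687) missed the threshold.

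These genes mark antigen-presenting cells, whose summed markers lay below those of the old group and overlapped with the young. The summed intensity of 13 B cell and plasma cell markers, Cd74 among them, was 4030 to 7300 in CR, 6100 to 9800 in young and 9270 to 12300 in old arrays, and 7 of the 13 means were lower than in the control diet. That of 25 macrophage markers was 8790 to 11000 in CR, 6960 to 15100 in young and 11600 to 16200 in old arrays, with 16 of 25 means lower and none called. The part of these cells in the fall of H2-Aa and Cd74 was not tested.

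Some basement membrane and vessel transcripts also fell. Of 24 collagens 19 had a lower mean (median -0.48, or -0.18 from old and -0.53 from young), 15 had a mean below both groups, 3 were called lower and 2 were diet-specific. Col4a1, the main network collagen of basement membranes, read 963, 631, 843, 1240 and 1090 against 1420, 1860 and 2620, with no overlap (-0.98 ± 0.18, adjusted p = 0.0233). Its second probe set missed the threshold (-0.49, adjusted p = 0.061) and lay close to old (-0.17) and further from young (-0.82). Col4a2, whose chain pairs with it and whose start lies 20 bases away on the opposite strand, differed by -0.59 ± 0.17 (adjusted p = 0.0903). Col15a1, found where basement membrane meets the matrix, read 357, 377, 173, 374 and 345 against 328, 792 and 1200 (-1.17 ± 0.24, adjusted p = 0.0345) and was 1.51 below young and 0.82 below old on the log2 scale. Col6a3 was called (-0.56 ± 0.13, adjusted p = 0.0417), mainly through its distance from young (-0.86, against -0.27 from old). Col4a1 was called in 12 of 15 fits with an array left out, with adjusted p = 0.0526, 0.0525 and 0.0606 without CR replicates 2, 3 and 5, and Col15a1 was called in 5, with an adjusted p of up to 0.0781.

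Matrix proteoglycans went both ways, with Prelp lower (-0.86 ± 0.20, adjusted p = 0.0467) and lumican, Lum, higher (0.55 ± 0.13, adjusted p = 0.0499), the only diet-specific members of 36 by their brightest probe set, and each was kept in at most 2 of 15 fits with an array left out. Timp3, an inhibitor of matrix proteases, was diet-specific and higher in a dimmer probe set (1.06, adjusted p = 0.0446) and lay the other way in its brightest (-0.68, adjusted p = 0.0543). The endothelial surface proteins Cd93 and Ptprb were among the 12 largest falls chosen without overlap. Cd93 read 383, 283, 261, 318 and 271 against 406, 563 and 831 (-0.92 ± 0.17, adjusted p = 0.0233), and Ptprb read 296, 260, 266, 126 and 225 against 311, 401 and 529 (-0.83 ± 0.19, adjusted p = 0.0471), a call lost in all 15 fits with an array left out (adjusted p of 0.053 to 0.0966). Aplnr, the apelin receptor, was diet-specific (-1.26 ± 0.27, adjusted p = 0.0397) and was called in 4 of those fits.

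Beside these, the 23 endothelial markers measured summed to 17300 to 21500 in CR, 22900 to 24600 in young and 20800 to 27400 in old arrays, so that CR lay below young and overlapped with old. In 18 of the 23 the CR mean was lower, Aplnr was the 1 called, and the defining markers Pecam1 (0.49, adjusted p = 0.194), Cdh5 (-0.11, adjusted p = 0.692) and Kdr (-0.08, adjusted p = 0.833) did not pass. The 14 smooth muscle and pericyte markers, cells of the vessel wall, summed to 29200 to 31400 in CR, above 24000 to 29100 in young and 24600 to 28200 in old arrays, although 8 of the 14 means were lower, none was called, and the brightest is desmin, Des (0.57, adjusted p = 0.0984), which muscle fibers also make. The part of a lower endothelial share in these falls was not tested.

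The remaining large falls were in Lman2, Ttc28, Tmcc2 and Smc6. Lman2, a cargo lectin of the secretory pathway, read 226, 132, 194, 182 and 220 against 266, 346 and 422 (-0.84 ± 0.15, adjusted p = 0.0225), Ttc28 read 238, 230, 184, 242 and 164 against 263, 439 and 701 (-1.12 ± 0.18, adjusted p = 0.0181), and Tmcc2 read 669, 947, 1410, 1090 and 1240 against 1610, 1840 and 2070 (-0.83 ± 0.15, adjusted p = 0.023). In each the CR arrays lay below all others. Lman2 had an adjusted p of 0.0511 without CR replicate 5 and 0.0522 without CR replicate 6, and Tmcc2 of 0.0501 without CR replicate 3. The other probe sets of Lman2, Ttc28 and Tmcc2, each brighter than the named one, differed by -0.33, -0.52 and -0.49 without passing. Smc6, part of a DNA repair complex, had an adjusted p of 0.0497 that no fit with an array left out kept under the threshold (0.0529 to 0.114), and its 4 other probe sets ranged from -0.73 to 0.45.

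**Figure D5:**
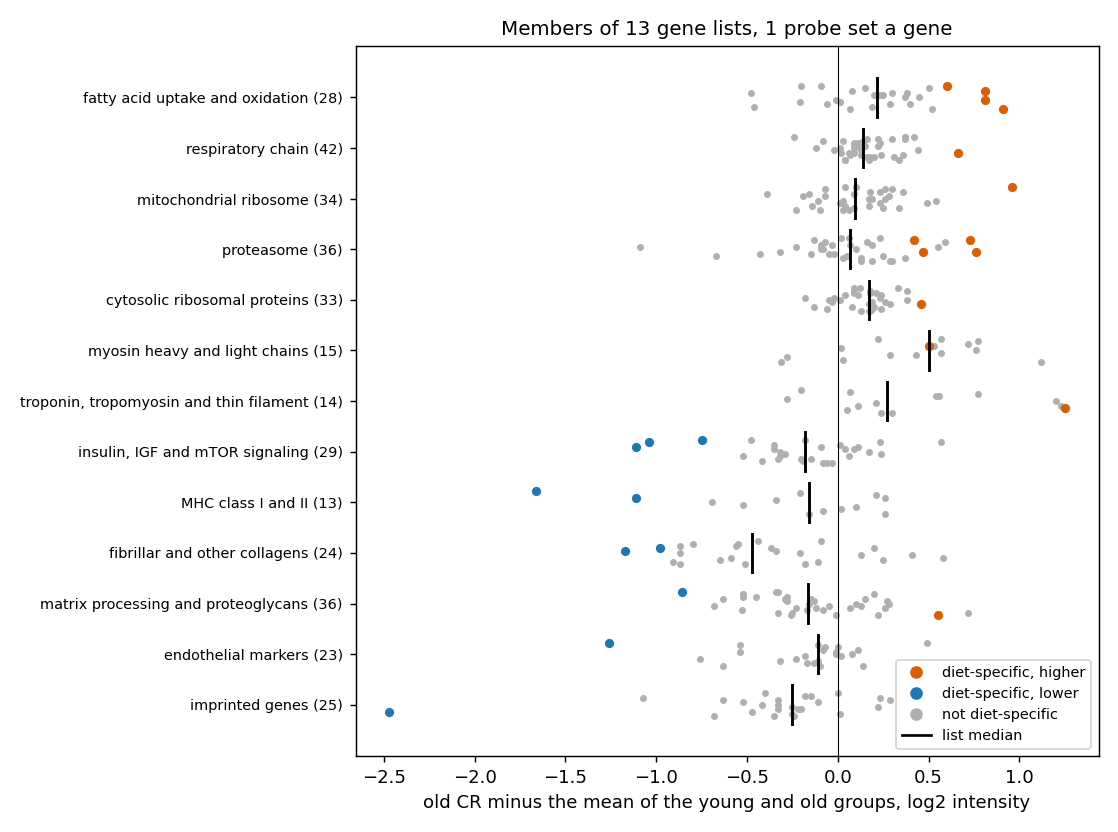
Difference of old CR from the mean of the young and old groups (log2 intensity) for each measured member of 13 gene lists, the number of members in brackets, with diet-specific members in color and the list median as a line. Diet-specific members of the fat oxidation and proteasome lists lie to the right, and those of the IGF, MHC class I and II and collagen lists to the left.

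By the brightest probe set, no member was diet-specific in the lists of sterol synthesis, glycolysis and glycogen, the citric acid cycle, PPAR and PGC-1 regulators, glucocorticoid-induced genes, immediate early genes, antioxidant genes, or cell cycle and p53 targets. In other probe sets Ppp1r3c, a glycogen-targeting phosphatase subunit (1.27, adjusted p = 0.0467), Ugp2 and Phka1 of the glycogen list, Bcl2l1, an inhibitor of apoptosis (1.51, adjusted p = 0.0403), and Aco1 were diet-specific, and limma's unadjusted p was under 0.05 for 4004 of all probe sets. In the 33 probe sets named by the size of their change or by the stricter rule, the fit with the 3′ minus 5′ covariate kept every sign and gave an unadjusted p under 0.05 for 28. The exceptions were Myo10 (0.59), Pdlim5 (0.46), Cd93 (-0.54), Ptprb (-0.56) and Smc6 (-0.49). Igfbp5 kept an unadjusted p under 0.05 at a smaller difference (-0.68). The 27 further members of the lists described that were called by their brightest probe set all kept their sign, and 11 had an unadjusted p under 0.05. In 12 the difference shrank by more than 1.5 times, to -0.67 for Aplnr, -0.29 for Atg5, 0.33 for Cars, -0.59 for Col15a1, -0.35 for Col6a3, 0.59 for Echs1, 0.35 for Hspb2, -0.64 for Igf1, 0.32 for Lum, 0.44 for Map1lc3a, 0.43 for Psmc5 and 0.39 for Sars.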

How the data were processed

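Gastrocnemius poly(A) RNA of 15 mice was hybridized to Affymetrix Mouse Expression 430A arrays, 1 animal an array. The values are intensity values as deposited by the authors, on a linear scale with a trimmed mean of 500.0 on each array. The authors' processing notes name MAS5 and RMA without versions, and the linear scale and the scaling are those of MAS5. Detection calls, batches and scan dates were not used here. No column of values was left unused.

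Groups were taken from the sample labels. The 64 manufacturer controls were left out, log2 was taken with no pseudocount (lowest intensity 0.119), and limma 3.58.1 in R 4.3.3 was fitted to 22626 probe sets and 3 groups, with the contrast of old CR against the mean of young and old and Benjamini-Hochberg adjustment. The p-values measure the spread between animals, whose small number sets how precise a difference can be. Of the 22690 probe sets, 20393 carry 1 gene symbol in the platform annotation, 691 several and 1606 none, and none with several was named. A gene in a list is represented by its brightest probe set.

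The genes named were the 12 largest rises and 12 largest falls among diet-specific, brighter probe sets without overlap, the 12 named probe sets that passed the stricter rule, up to 4 members of each list by p and of each marker list by brightness, and their other probe sets. Egln1, Egln2, Hadhb, Col4a2, Myh2, Myh4 and further members named within a list were chosen after their values were seen. The members and gene lists were chosen with earlier results of these data known. Quantile normalization, median centering, array weights, a variance trend with robust estimation, the brighter probe sets alone, a replicate block, a 2-group fit, the 3′ minus 5′ covariate, Gapdh or Actb alone, averaging each gene's probe sets, a lognormal-normal model, adjusted p under 0.10 and leaving out each array were tried. The fit was tested on simulated data. Figures were drawn with matplotlib 3.10.9 in Python 3.11.15.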

Additional observations from a re-analysis of the deposited data

Results flagged for a closer look

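Of 300 groups of 5 arrays tested for a value standing apart (a gap to the nearest array above Dixon's 95% critical share of the range of the group), 14 did so, and chance flags about 1 in 20 groups. Old CR replicate 2 accounted for 6 of the 14. It was the highest CR array for Mrps18c (gap 0.76 of the range, intensity 1510 against 1020 in the next), Uchl1 (0.89, 643 against 313), Mrpl12 (0.71, 2620 against 1920), Hadha (0.75, 8800 against 6320) and Hspa9 (0.74, 5290 against 4170), and the lowest for Igfbp5 (0.90, 2200 against 2970). Old CR replicate 5 was lowest for Col15a1 (0.89, 173 against 345) and Myl3 (0.78, 14300 against 16800), and old CR replicate 3 for Ndufv2 (0.87, 9600 against 12600). Young replicate 3 was lowest for Hspb2 (0.85, 966 against 2480) and Cars (0.80, 333 against 608). Uchl1 was highest in old replicate 3 (0.74, 260 against 170), Phka1 lowest in old replicate 4 (0.78, 4750 against 5600), and Hnrnpa2b1 highest in young replicate 5 (0.73, 2680 against 1920).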

How the results depend on the processing

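No named gene called reversed its direction in the settings run, but the list median of lipid synthesis turned from -0.12 to 0.10 with the probe sets of each gene averaged, and that of the chaperones from 0.02 to -0.02 with arrays centered. The larger side of the counts changed as well. Called probe sets were 187 higher and 183 lower in the main fit and 440 and 586 over the brighter probe sets. With a variance trend and robust estimation together they were 417 and 480. At the stricter rule 9 and 5 became 50 and 63 over the brighter probe sets. The counts of called, diet-specific and stricter probe sets were 1026, 764 and 113 over the brighter probe sets alone, 897, 730 and 80 with a variance trend and robust estimation, and 1206, 895 and 60 at an adjusted p under 0.10. They were 0, 0 and 0 with the 3′ minus 5′ covariate, where limma's unadjusted p was under 0.05 for 1726 probe sets. A fit of 2 groups called 92, all 92 of them diet-specific. Centering arrays on their medians left 9 at the stricter rule and moved the split of called probe sets to 129 higher and 181 lower (diet-specific 113 and 178). The lognormal-normal model, fitted to the brighter probe sets alone, called 121 diet-specific. Of these, 44 were among the 334, of which 255 belong to the brighter probe sets. Leaving out 1 array gave 78 (without old CR replicate 5) to 346 called, 77 (the same array left out) to 262 diet-specific, 4 to 18 at the stricter rule and 303 to 435 without overlap. Replicate numbers are shared between groups. The 11 same-numbered pairs had correlations of -0.28 to 0.09, and the 64 other pairs between groups -0.24 to 0.17. These values cannot show whether same-numbered arrays were handled together. A replicate block left 4 called, 4 diet-specific and 0 at the stricter rule. The cause of these changes was not tested. No measure of signal over background was used for the dim probe sets.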

Other observations

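Outside the groups described, single members of other lists were diet-specific in at least 1 probe set. The casein kinases Csnk1e (-0.59, adjusted p = 0.0347 by limma) and Csnk1d (-0.53, adjusted p = 0.0405), which mark clock proteins for degradation, were lower. Asph, a hydroxylase whose locus also gives the calcium store protein junctin, was lower and alike against young and old (-0.67 each, adjusted p = 0.023). Bckdhb, a subunit of the enzyme that commits branched-chain amino acids to breakdown, was higher (0.69, adjusted p = 0.0381). The translation factor subunits Eef1d (0.56, adjusted p = 0.0412) and Eif3a (1.03, adjusted p = 0.041) were higher, the latter with 1.49 from old and 0.57 from young. Fdps, of sterol synthesis, was called (0.65, adjusted p = 0.0311) but differed by 1.03 from old and 0.27 from young and was not diet-specific. These genes were chosen after their values were seen.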
